A study of Mus musculus with 12 samples.

Results

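Isolated methylated cytosines in nuclear genes were studied in mRNA of cultured mouse neural stem cells (NSCs). These are cytosines called as methylated with no other called cytosine nearby on the same strand, though neighbours below the minimums of a call can be present. A cytosine counted as called in a library with a coverage of at least 20 reads, at least 6 methylated reads and a methylation level of at least 10%, where the level is the methylated reads as a percentage of methylated plus converted reads. A member was called in both replicates of at least 1 of 5 conditions (LF, MF, pLF, pMF, pHF), lay in an annotated gene outside chromosomes MT and Y, and had no other called cytosine of its strand within 25 bases in either replicate of that condition. This rule found 259 cytosines among the 6384216 different cytosines listed in the series without a variant base. Of the listed cytosines in nuclear genes, 1627266 reached this coverage in both replicates of 1 or more of the 5 conditions. Of them 953 (0.0586%) were called there, 694 of the 953 lay in clusters and the other 259 are the members. A cytosine was listed only with at least 1 methylated read. Fully converted cytosines are therefore missing from these counts and from the covered cytosines named below. The members were chosen by their levels, so the levels that chose them are given as a description, without a test.

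The cells were adult NSCs of the subventricular zone of wild-type (WT) male C57BL/6 mice aged 6 to 8 weeks, kept as a monolayer culture with growth factors. Folic acid was given for 4 days at 1.5 μM in LF, at 10 μM in MF and at 80 μM in HF, and poly(A) RNA was treated with bisulfite and sequenced from total RNA and, as pLF, pMF and pHF, from polysome fractions with more than 3 ribosomes. Each of the 6 conditions had 2 replicates, which gave 12 libraries. The study calls them biological replicates, but the sources used here name no separate animals or cultures for them. The p-values therefore speak only for these samples, and those of Fisher's exact test on pooled reads hold no spread between replicates. Of 8 NSC marker genes 7, among them Nes, Vim and Fabp7, had covered cytosines in every library, with a summed mean coverage between 36215 and 60754. Sox2, which lies inside the longer gene Sox2ot, had none under its own name. Of 5 neuron markers Rbfox3 and Syt1, and of 5 oligodendrocyte markers Sox10, Mog and Mag, had no covered cytosine in any library. Of 6 mesenchyme markers, 4 or 5 were covered in each library, with a summed mean coverage between 2346 and 8854, most of it from Col1a2, and Dcn was not covered in any.

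Some libraries stood apart. In both libraries labelled HF, 2334 cytosines of nuclear genes were called, against 358 to 619 in the other conditions, and 91.3% of these were isolated. Guanine stood just before 94.9% of the 2036 of these isolated sites that were isolated in no other condition, against 27.4% of the members. The mean coverage of Fabp7 was 3309 and 2883 in them, against 9978 to 15593 in LF and MF. The rule and the tests did not use them, and their levels are given only as values of the libraries labelled HF. Replicate 2 of pHF listed 38353 cytosines with a level above 90%, against 1102 to 3465 in the other libraries. Without pHF the rule found 228 members. The coverage summed over listed cytosines was between 1186213013 and 2857966129 per library, and the median coverage of the members was between 123 and 299 reads.

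5-Methylcytosine (m5C) is a methyl mark that RNA methyltransferases of the NSUN family and DNMT2 place on tRNA, rRNA and mRNA. NSUN2 is known to act in tRNAs and mRNAs at cytosines followed by guanines, often at the foot of a small stem loop, while NSUN6 is known for a CTCCA context in a loop. Bisulfite turns unmethylated cytosine into uracil and leaves m5C, but cytosines of a stretch that stayed folded or was not denatured can also escape conversion, and they tend to do so together with their neighbours. NSUN2 and folate metabolism are known to matter in neural development.

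The sequences below are shown since they carry the contexts in which the members lay. They are the 21 bases around a site, 5′ to 3′, with the methylated cytosine in capitals, from the deposited lists and in the strand of the gene (GRCm38); all 259 matched GRCm38.p6. First come 6 of the 8 sites with the highest mean level over 10 libraries among those called in all 5 conditions. Of the other two, Sdc3 stands in the next set and Wac is not shown.
Ranbp9: ccgcgctccgCcgggccgcgc
Pabpc4: cagccttctcCggcgtcgctg
Myo6: accagggagtCagggtctcac
Rnf157: gcccctcaagCagaagcaagt
Rela: ggtgctttcgCaggagcatta
Srsf6: agttactcttCcgagtttata

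The 3 sites with the CTCCA context that were called in most conditions follow.
Sdc3: ggacacgtgtCtccaaagtgc
Thbs3: gccccgatccCtccagcagag
Bag6: cggccaactcCtccacaggct

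The last set shares another run of bases, GCCAAATG or GCCACATG, in which the second of the 2 adjoining cytosines was the methylated one. This run was read off the members.
Hnrnph1, chr11:50383896: ttatggtagcCaaatgatggg
Hnrnph1, chr11:50383745: ttacggtagcCaaatgctagg
Gm49168: ttatggtagcCaaatgatgga
Fam131a: cctctgtggcCaaatgtgggc
Ppp2r5c: gacagttagcCaaatgtgttt
Piezo1, chr8:122488239: aggccgtagcCacatgatgca
Csf1: acactgtagcCacatgattgg

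Guanine stood after isolated cytosines in a larger share than after clustered ones. Clustered sites have another called cytosine within 25 bases. Contrasts of bases with them, here and below, are therefore partly set by the rule. Cytosine stood 3 bases downstream at 44.1% of the clustered sites, 10.4% of the members and 26.9% of the cytosines not called. At position 3 downstream of the cytosine, guanine stood at 57.9% of the 259 members (95% Wilson interval 51.8% to 63.8%), 19.2% of the 694 clustered sites and 27.4% of the 1622871 covered cytosines that were called in no library. Where a call in 1 replicate was enough, the rule gave 3635 sites from replicate 2 and 1773 from replicate 1, and the share at position 3 was 32.4% and 37%. At position 2 guanine stood at 59.1% of the members and at position 4 at 49.0%. A guanine at each of positions 2 to 4, written CNGGG, was found at 57 members (22.0%), at 5.33% of the clustered sites and at 1.95% of the cytosines not called. At least 2 guanines at positions 2 to 4 were found at 64.5% of the members. Intervals of shares cover counting error over sites only and treat the sites as independent, which neighbouring clustered sites are not. Tests and intervals on reads further below count PCR reads without molecular identifiers, which are not independent molecules.

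**Figure D1:**
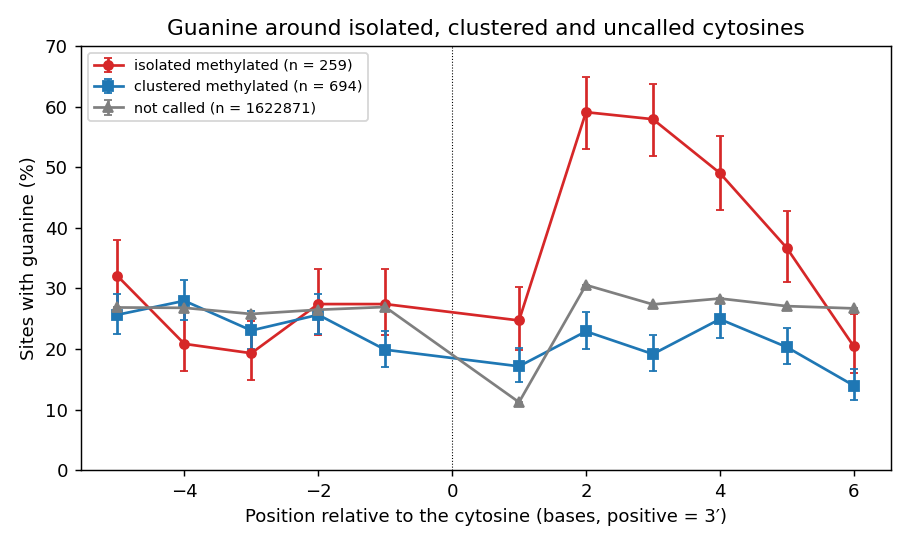
The plot shows the share of sites with guanine, in percent, at each position from 5 bases before to 6 bases after the cytosine, for isolated methylated, clustered methylated and uncalled cytosines, with 95% Wilson intervals as bars. The share in isolated sites rises to 59.1% and 57.9% at positions 2 and 3, while clustered sites stay at 19.2% at position 3. Clustered sites have another called cytosine within 25 bases, so their contrast with isolated sites is partly set by the rule.

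The CTCCA context was found at 13 members (5.02%) and at 1 of the 694 clustered sites (0.144%), against 0.744% of the cytosines not called. Beside Sdc3, a heparan sulfate proteoglycan of the cell surface, Thbs3, a thrombospondin of the matrix, and Bag6, a chaperone factor, it was found at Foxp4, Col23a1, Slc25a23 and Kif3a. Of the 13 sites 9 lay in coding sequence and 4 in 3'UTRs. The 2036 sites isolated only in the libraries labelled HF had guanine at position 3 in 22.0%, CNGGG in 1.42% and CTCCA in 0.393%.

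The run GCCAAATG or GCCACATG held 22 of the 259 members (8.49%) and 0 of the 694 clustered sites. GCCAAATG was found at 17 members (6.56%), against 0.0113% of the cytosines not called, and GCCACATG at 5. The other letters at that place were not found among members: GCCAGATG was covered at 264 and GCCATATG at 83 listed cytosines, and 0 of either were members. In 19 of the 22 members GT also stood, separated by 1 base, ahead of the run (GTNGCCAAATG at 16 and GTNGCCACATG at 3). Among listed cytosines that reached the coverage minimum, 17 of 214 with GCCAAATG (7.94%) and 5 of 188 with GCCACATG (2.66%) were members. A total of 35 listed cytosines with GTNGCCAAATG reached the coverage minimum, and 16 of them (45.7%) were members. The same held for 3 of 29 listed cytosines (10.3%) with GTNGCCACATG. Cytosines without a methylated read are not listed, so these are not shares of all cytosines with the run. These figures stand beside 259 of 1627266 in all, and since the run was read off the members they are a description. The 45 covered cytosines of these longer runs that were no members had a median level of 3.13% in reads pooled over 10 libraries (quartiles 1.60% and 5.84%), against 0.203% for the cytosines not called. These sets are unlike, since some of the 45 were called in a library and the other set leaves out every called cytosine. For the shorter run with any base at that place, GCCANATG, 727 covered cytosines were no members. Their median pooled level was 0.378% (upper quartile 1.11%), and 107 of them were above 2%.

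The genes of these 22 sites have varied roles. Hnrnph1, which encodes a splicing factor that binds guanine runs, held 2 of them, 151 bases apart, whose 21-base contexts were the same at 18 of 21 bases. The downstream one, in exon 12 of the coding sequence, had levels of 7.59% and 8.54% in LF, 8.02% and 8.30% in MF, 22.8% and 21.1% in pLF, 20.7% and 21.6% in pMF, then 27.3% and 23.0% in pHF, at coverages between 2423 and 6418 reads. Every polysome library was above every total library at this site, which entered through polysome mRNA alone, so that the order follows in part from the rule. The processed pseudogene Gm49168 differed from it at 1 of 21 bases (20 were the same), was listed in the 6 polysome libraries only, at 19.7% to 28.6%, and reads of Hnrnph1 placed there cannot be told apart from its own. Piezo1, a mechanosensitive ion channel, had 7.63% to 10.5% in total and 11.6% to 17.0% in polysome mRNA at its site with this run. Csf1, the growth factor of macrophages, had 5.08% to 17.7% and 9.62% to 22.3%, so that the fractions overlapped. Ppp2r5c, a regulatory subunit of phosphatase PP2A, had 5.09% to 9.54% in total mRNA and 10.3% to 41.4% in polysome mRNA, the latter at only 29 to 63 reads. Of the 22 sites 12 lay in coding sequence, 5 in 3'UTRs, 4 in introns of principal transcripts (the upstream site of Hnrnph1 and that of Gtpbp3 among them) and 1 in the pseudogene. Over the 13 of the 22 covered by 20 or more reads in all 12 libraries, the median level was 6.32% to 7.59% in the LF and MF libraries and 11.8% to 16.7% in the polysome libraries. Of the 22, 14 had entered through polysome mRNA alone and 5 through total mRNA alone, so this order too is partly set by the rule.

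**Figure D2:**
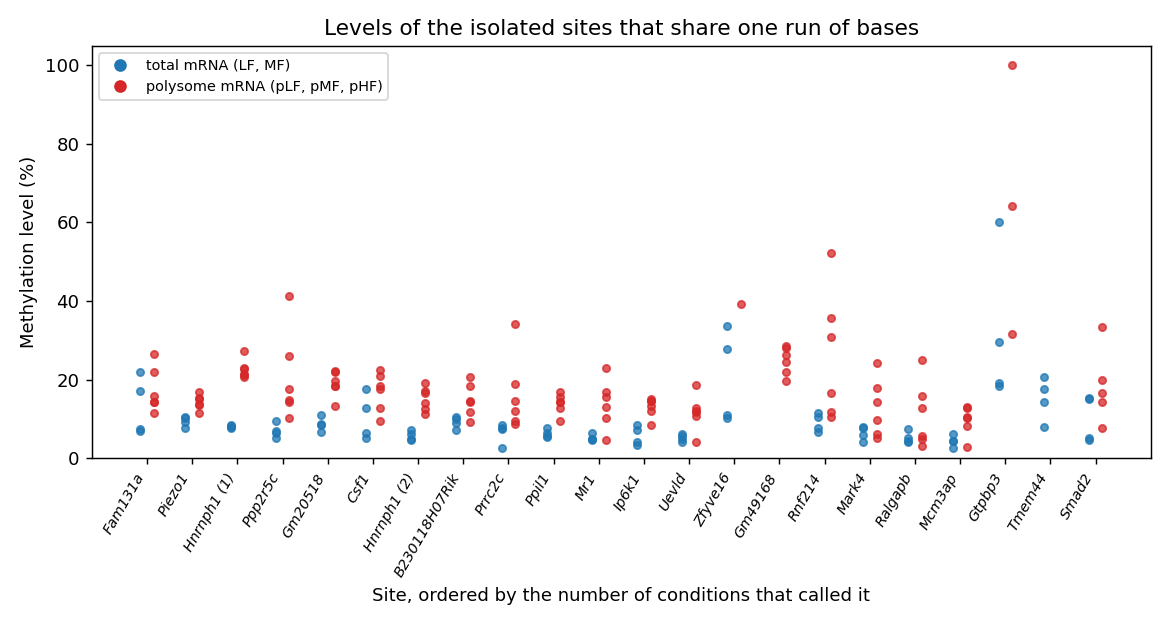
Each point is the methylation level in percent of 1 library at 1 of the 22 isolated sites with GCCAAATG or GCCACATG, in blue for total (LF, MF) and red for polysome mRNA (pLF, pMF, pHF); Hnrnph1 (1) is the downstream site. Points of the Gtpbp3 site reach 100% at a coverage of 12 reads, while most sites lie under 20% in total mRNA.

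The members were spread over 254 gene entries, and only Ptprn, Glg1, Hnrnph1, Foxp4 and Piezo1 held 2. Of the 259 members 248 lay in protein-coding genes, 7 in pseudogenes and 4 in other noncoding genes, and 6 lay where 2 genes overlap. Along principal transcripts (GENCODE vM21), 122 lay in coding sequence, 80 in 3'UTRs, 24 in 5'UTRs, 21 in introns, 9 in noncoding exons and 3 outside any. Of the 226 in mRNA exons, 10.6% (95% Wilson interval 7.24% to 15.3%) were in 5'UTRs, against 21.6% (17.7% to 26.2%) of 365 clustered sites and 2.64% of the cytosines not called. Within 100 bases of a start codon lay 7.96% of these members (5.10% to 12.2%) and 30.4% of the clustered sites (25.9% to 35.3%), beside 5.21% of the cytosines not called. Introns held 8.11% of the members, 38.9% of the clustered sites and 1.10% of the cytosines not called. Of the 21 intronic members 17 were called in total mRNA alone.

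The 8 highest sites called in all 5 conditions lay in 5'UTRs (Ranbp9, Pabpc4 and Wac), in 3'UTRs (Myo6, Sdc3, Rela and Srsf6) and in coding sequence (Rnf157 only). Ranbp9 encodes a scaffold protein of a ubiquitin ligase complex, and its site (chr13:43481070, minus strand) lay in exon 1, 142 bases before the start codon. Its level reached 41.7% and 46.8% in LF, 41.2% and 44.3% in MF, 61.2% and 67.2% in pLF, 75.6% and 62.9% in pMF, 66.3% and 68.2% in pHF, and 50.8% and 48.8% in the libraries labelled HF. All polysome libraries lay above all total libraries. Pabpc4 encodes a cytoplasmic poly(A)-binding protein, and its site in the 5'UTR (chr4:123283491, plus strand, 124 bases before the start codon) did not separate the fractions. It had 57.4% and 41.5% in LF, 48.3% and 47.5% in MF, 53.7% and 59.3% in pLF, 50.7% and 66.2% in pMF, then 57.7% and 50.6% in pHF, at 47 to 95 reads. Wac, an adaptor of histone H2B ubiquitination, had a 5'UTR site with 31.1% to 39.5% in total and 32.0% to 60% in polysome mRNA.

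In 3'UTRs, the site of Myo6, the myosin that moves towards the minus end of actin, had 38.2% to 44.0% in total mRNA and 38.1% to 74.0% in polysome mRNA, where coverage was 26 to 118 reads. The site of Sdc3 (chr4:130824055, plus strand) was measured with more reads, 335 to 1202, and had 36.7% to 41.3% in total and 47.8% to 57.6% in polysome mRNA, without overlap. Rela encodes the p65 subunit of NF-kappaB, and its 3'UTR site had 22.5% to 28.6% and 42.2% to 52.9%, likewise without overlap. Srsf6, a serine and arginine rich splicing factor, had 29.3% to 33.5% in total and 30.6% to 43.4% in polysome mRNA, and the libraries labelled HF were above all others with 47.6% and 47.1%. In coding sequence, the site of Rnf157, a ubiquitin ligase of neurons, had 30.1% to 41.6% in total and 33.3% to 57.0% in polysome mRNA. Among all members few had a level above 50%, between 4 and 12 in each library at a coverage of 20 or more.

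Genes with 2 members held sites of unlike level in Glg1 and Ptprn and of like level in Piezo1. In Glg1, a glycoprotein of the Golgi, the 2 sites lay in the 3'UTR, at 20.3% to 25.4% and 8.41% to 11.2% in total mRNA. In Ptprn, a protein of secretory vesicles, the 3'UTR site had 20.9% to 23.3% in polysome mRNA and the coding site 10.3% to 14%. In Foxp4, a forkhead transcription factor, both coding sites were low in LF and MF (2.56% to 4.24% and 1.01% to 8.77%). The other coding site of Piezo1, in exon 6, had 9.81% to 11.8% in total and 11.7% to 17.0% in polysome mRNA.

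The members were counted in lists of genes, as a description. All 12130 genes with a covered cytosine included 260 with a member (2.14%). Of 20 collagen genes 5 (25%) had one (Col1a2, Col4a6, Col6a2, Col16a1 and Col23a1), and of 35 matrix glycoproteins and integrins also 5 (14.3%; Fbln2, Fbn1, Fn1, Nid2 and Thbs3). Of 43 hnRNP and SR splicing factors 3 (6.98%) had one (Hnrnpa2b1, Hnrnph1 and Srsf6), of 66 translation factors 3 (4.55%; Eif3e, Eif4b and Pabpc4) and of 83 cytosolic ribosomal proteins 2 (2.41%; Rpl23 and Rpl34). Ubiquitin ligases and adaptors had 6 of 179 (3.35%; Cul5, Klhl26, Rnf157, Rnf166, Rnf214 and Trim41), solute carriers and channels 9 of 200 (4.5%), and zinc finger proteins 3 of 303 (0.990%). Of 7 NSC marker genes 0 had one. Gene length and expression differ between the lists, and their part in these counts was not tested.

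The m5C machinery and the folate and methionine cycle held 1 member per list, counts too small to set against the 2.14% of all genes. Of 5 m5C writer genes only Nsun5, which methylates rRNA of the large ribosomal subunit, had a member, a 3'UTR site called in pMF alone with 23.5% and 18.4% there and 2.50% to 17.2% in the other libraries that listed it. Of 10 reader and eraser genes Ybx3, a cold shock domain protein, had one, with 9.83% to 12% in LF and MF and 12.2% to 18% in polysome mRNA. Of 25 genes of the folate and methionine cycle only Cbs, the enzyme that takes homocysteine into transsulfuration, had a member. Its coding site had 8.13% and 4.70% in LF, 5.55% and 6.47% in MF, 10.5% and 11.7% in pLF, 13.4% and 15% in pMF, then 20.6% and 11.4% in pHF, an order that the rule sets in part, since the site entered through polysome mRNA alone.

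Among matrix genes, Fbln2, which encodes fibulin 2, had a deeply read site, with 2996 to 7084 reads. Its level stood at 12.5% and 12.7% in LF, 12.8% and 12.6% in MF, 32.3% and 33.7% in pLF, 33.5% and 33.8% in pMF, then 42.3% and 36.4% in pHF, and 21.3% and 22.4% in the libraries labelled HF. Nid2, a nidogen of basement membranes, had 33.3% to 59.1% in total mRNA at 37 to 57 reads. Col1a2, a chain of type I collagen, had 2.49% to 3.22% in total and 7.44% to 10.3% in polysome mRNA at 3105 to 6780 reads, and was called in pHF alone. Col16a1 and Col23a1 were called in 1 condition each, and Fn1, the fibronectin gene, in pLF alone, with 6.08% to 8.31% in total and 8.76% to 12.7% in polysome mRNA. The sites of Col1a2 and Fn1 entered through polysome mRNA alone, so the rule sets their order of the fractions in part.

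Conditions shared part of the members. Of 259, 105 were called as isolated in 1 condition only, 56 in 2, 47 in 3, 19 in 4 and 32 in all 5. LF held 72, MF 77, pLF 153, pMF 140 and pHF 152. By fraction, 164 entered through polysome mRNA alone, 35 through total mRNA alone and 60 through both. The 39 members of pLF alone had a median level of 15.7% there, 8.26% in pMF, 10.0% in pHF and 5.70% in LF, over those covered in both replicates. The 31 members of pHF alone had 13.3% there, 9.24% in pLF and 8.93% in pMF. The 8 members of LF alone had 15.5% there and 10.5% in MF (7 covered), and the 17 of MF alone had 16.3% there and 10.8% in LF (11 covered), while only 2 or 3 of either were covered in a polysome condition, at medians of 13.3% to 19.6%.

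The highest member of each single condition differed in kind. Prox2, a homeobox gene, had the highest site of MF alone, with 95.7% and 90.5% at 23 and 21 reads; in LF it had 83.3% and 93.8% at a coverage under 20. S100a13 had the highest of pLF alone, an intronic site with 100% and 92% at 26 and 25 reads, listed in no total mRNA library. For LF alone it was an intronic site of Gtpbp3, a tRNA modification enzyme of mitochondria (29.6% and 60%), for pMF alone a coding site of Agfg2 (46.2% and 25%, against 2.99% to 6.12% in total mRNA), and for pHF alone a 5'UTR site of Ccdc92 (45% and 34.5%). Values just inside the minimum of 10% were 10.1% at Ybx3 in MF, 10.1% at Acp1 in pHF and 10.1% at Tapbp in pHF, for the lower replicate. Just outside were 9.92% at Lama5 in pMF, 9.91% at Dip2a in pHF and 9.87% at a site shared by Gm49378 and Tm9sf1 in MF.

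A total of 165 members were covered by 20 or more reads in all 12 libraries. Their median level came to 7% and 7.76% in LF, 7.60% and 6.97% in MF, 14.6% and 14% in pLF, 14.3% and 14.4% in pMF, 15.4% and 14.9% in pHF, and 10.1% and 10.3% in the libraries labelled HF. More members entered through polysome than through total mRNA, so the order of the fractions is partly set by the rule. In the 48 of these that entered through both fractions, the medians were 14.2% to 16% in the LF and MF libraries and 23.2% to 27.7% in the polysome libraries. At background positions, the share of reads left unconverted was 0.139% to 0.148% in LF and MF and 0.176% to 0.191% in pLF and pMF. It was 0.187% in replicate 1 and 0.128% in replicate 2 of pHF. Listed cytosines within 25 bases of the members had a median level of 0.314% to 0.368% in LF and MF and 0.492% to 0.697% in polysome libraries. Fully converted cytosines are not listed, so neither value is a conversion rate. With fewer reads, the 1 methylated read needed for listing is a larger share. The part of these values, and of coverage, in the difference between the fractions was not tested. Replicates differed at a member by a median of 1.83 to 1.92 percentage points in LF and MF and of 3.35 to 4.12 points in the polysome conditions.

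**Figure D3:**
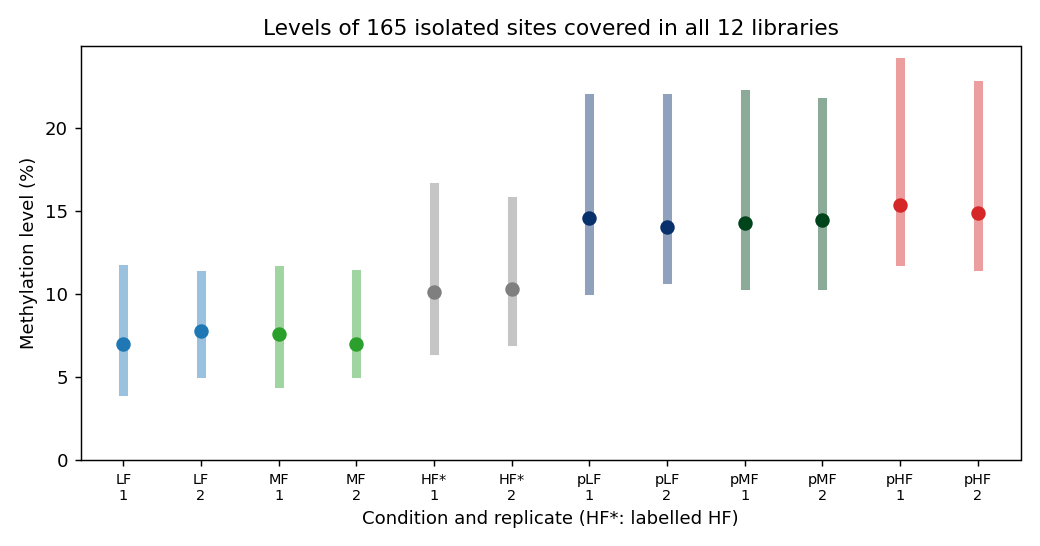
Points are the median methylation level in percent of the 165 isolated sites covered in all 12 libraries, and bars span the quartiles, for each library (HF* marks the libraries labelled HF). Medians lie between 6.97% and 7.76% in LF and MF and between 14% and 15.4% in the polysome libraries.

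The comparison of polysome with total mRNA asked whether isolated sites differ in level in the translated fraction. To keep it free of the rule, sites were taken from libraries that the comparison did not use: those called in MF and in pMF for pLF against LF, and those called in LF and in pLF for pMF against MF. Fisher's exact test (two-sided) was run on reads pooled over replicates, with Benjamini-Hochberg adjustment over all called cytosines that entered in the same way. Of 41 isolated sites tested, 25 were higher in pLF than in LF and 0 lower (adjusted p under 0.05), beside 40.4% of the 198 cytosines tested that were called higher and 4.04% lower (44.4% in all). The pooled level was higher in pLF at 38 of 41 sites (75.8% of all tested cytosines), and the median difference was 9.89 percentage points, against 5.40 over all 198. Of 43 isolated sites, 24 were higher in pMF than in MF and 0 lower, beside 29.3% of 188 called higher and 12.2% lower (41.5% in all); 41 of 43 were higher (60.6% of all tested), with a median of 8.31 points, against 1.52 over all 188. The pooled test has no error term between replicates: a beta-binomial test with a shared spread called 19 and 17 of these sites higher (27.8% and 16% of all tested), and limma on log odds 4 and 9 (10.6% and 5.32% of all tested).

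Thbs3 had the largest difference in both. Its coding site (chr3:89217880, plus strand) had 13.9% and 16.4% in LF, 44.2% and 44.5% in pLF, 13.4% and 13.6% in MF, and 47.2% and 42.5% in pMF. The fractions did not overlap in either dose. The difference was 29.3 points (95% Newcombe interval 25 to 33.5, Fisher adjusted p = 4.46e-44, limma adjusted p = 0.00467) for pLF against LF and 31.6 points (27.2 to 35.9, Fisher adjusted p = 7.64e-51, limma adjusted p = 0.0375) for pMF against MF. Fbln2 followed a like course, higher by 20.3 points (19.1 to 21.5) in pLF and by 20.9 points (19.7 to 22.2) in pMF, with limma adjusted p = 0.00863 and 0.0375.

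Other sites named by size of difference in pLF against LF were Myo6, Rnf157 and Ttc39c. Myo6 differed by 25 points (13.6 to 35.3, Fisher adjusted p = 0.0001), but 42.3% and 74.0% in pLF are replicates far apart, limma gave an adjusted p of 0.281, and without pLF replicate 2 the difference was 1.67 points (Fisher adjusted p = 1). Rnf157 differed by 20.5 points (15 to 25.9, Fisher adjusted p = 2.56e-12, limma adjusted p = 0.0526). Ttc39c, a tetratricopeptide repeat gene, differed by 20.4 points (7.71 to 31.9, limma adjusted p = 0.0789), and by 13.5 points without LF replicate 1 (Fisher adjusted p = 0.21). In pMF against MF they were Ranbp9, Col4a6, Rela and Wdr48. Col4a6, a chain of basement membrane collagen, had 5.65% and 5.96% in MF and 37.8% and 24.4% in pMF, a difference of 23.4 points (15.4 to 32.3, limma adjusted p = 0.0375). Wdr48, a cofactor of the deubiquitinase USP1, had 18.4% and 19.4% in MF and 42.5% and 40.0% in pMF, a difference of 22.1 points (15.5 to 28.9, limma adjusted p = 0.0375). Rela differed by 23.3 points (19.8 to 26.6, limma adjusted p = 0.0375) and Ranbp9 by 24.7 points (15.1 to 33.2, limma adjusted p = 0.0939).

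**Figure D4:**
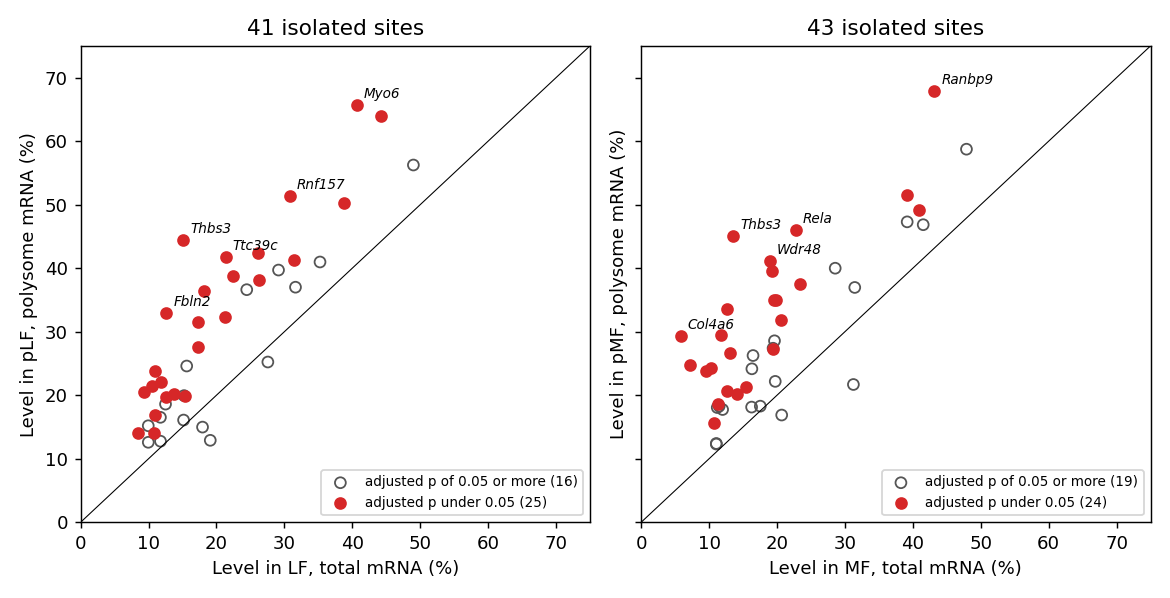
Each point is an isolated site, with its level in percent (reads pooled over 2 replicates) in total mRNA on the x axis and in polysome mRNA on the y axis, for 41 sites in pLF against LF and 43 in pMF against MF. Filled points had a Fisher adjusted p under 0.05 (25 and 24), the line marks equal levels, and nearly all points lie above it.

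Of the 35 isolated sites tested at both doses, 19 were called in both comparisons, 3 in pLF against LF alone and 1 in pMF against MF alone. Over all cytosines tested, 44.4% were called in pLF against LF and 41.5% in pMF against MF. The share of all cytosines called in both was not counted. These comparisons share no library, but each took its sites from libraries of the other. Sites lower in polysome mRNA were few and were not called: Plxna3, a semaphorin receptor, and the pseudogene Rpl19-ps1 at both doses, and Farp2 in pLF against LF. In coding sequence 14 of 20 sites and in 3'UTRs 10 of 15 were called higher in pLF, and 12 of 19 and 11 of 17 in pMF. In 5'UTRs 1 of 4 and 1 of 5 were called, and in noncoding exons 0 of 2 in either comparison, beside the 40.4% and 29.3% called higher over all cytosines tested. All 3 CTCCA sites tested were called in each comparison.

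A few members were near background in total mRNA. Of the 164 that entered through polysome mRNA alone, 131 were covered by 20 or more reads in all LF and MF libraries, and 5 of these had a pooled level under 1% there (Slc6a6, Hnrnpa2b1, Eif3e, Kif3a and Zfp24). This limit was chosen after the levels were seen, so the group is a description. Slc6a6, the taurine transporter, had a 3'UTR site with 0.312% to 0.572% in total mRNA at 699 to 963 reads, and with 23.3% and 39.9% in pLF, 21.7% and 13.9% in pMF, then 29% and 13.8% in pHF. Hnrnpa2b1, a splicing and RNA transport factor, had 0.259% to 0.990% in total mRNA and 50.1% and 33.1% in pLF, 5.22% and 14.7% in pMF, then 30.6% and 3.71% in pHF. Eif3e, a subunit of initiation factor eIF3, had 0.135% to 0.265% in total mRNA and 31.7% and 17.5% in pLF, 4.11% and 6.36% in pMF, then 17.1% and 0.345% in pHF. Zfp207, a zinc finger protein of the spindle, was listed in 3 of the 4 LF and MF libraries, at 0.2% to 0.468%, and had 73.4% and 83.1% in pLF and 65.6% and 25.9% in pHF. Kif3a, a kinesin motor subunit, had 0.245% to 0.484% in total mRNA, 6.07% and 8.19% in pLF, 4.61% and 4.63% in pMF, then 12.9% and 13.8% in pHF, and its replicates lay close. The contexts of 4 of the 5, and of Zfp207, follow, to show which bases stood after the cytosine; Kif3a had the CTCCA context. Of all 259 members 53 had no guanine at positions 2 to 4.
Slc6a6: gaaagttctgCccaaaaacaa
Hnrnpa2b1: taagatttttCtcaaaagttt
Eif3e: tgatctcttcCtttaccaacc
Kif3a: ggccacggacCtccaagggga
Zfp207: ccagcagcttCaataacaagt

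Of the 5 sites, 0 had at least 2 guanines at positions 2 to 4 (95% Wilson interval 0% to 43.4%), against 29 of 42 (69.0%) with a pooled level of 1% to 5% in total mRNA and 54 of 84 (64.3%) with 5% or more. The replicates of these 5 differed by a median of 14.3 points in pLF, 2.25 in pMF and 15.2 in pHF, against 2.37, 2.75 and 3.06 points at the 84 sites.

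The comparison of LF with MF asked whether low folic acid moved isolated sites of total mRNA. Sites entered through polysome mRNA, 190 of 224 had enough coverage, and 9 were called by Fisher's exact test, 8 higher and 1 lower in LF. This stands beside 4.44% of all 585 cytosines tested (2.74% higher and 1.71% lower). The levels were higher in LF at 96 sites and lower at 94, with a median difference of 0.0253 points. A beta-binomial test called 2 of the 9, Wdr48 and Col4a6 (0.855% of all tested were called), and limma 0. At an unadjusted p under 0.05 limma had 15 of the 190, and the share over all 585 was not counted.

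Wdr48 (chr9:119925427, plus strand, 3'UTR, exon 19) had 33.1% and 30.4% in LF and 18.4% and 19.4% in MF, beside 10.3% and 10.8% in the libraries labelled HF. It was higher in LF by 12.5 points (95% Newcombe interval 6.82 to 18.3, Fisher adjusted p = 0.00175, beta-binomial adjusted p = 0.0341, limma adjusted p = 0.776). In polysome mRNA it had 36.8% and 44.3% in pLF, 42.5% and 40.0% in pMF, then 35.5% and 34.2% in pHF, where pLF and pMF overlapped. Col4a6 (chrX:141200186, minus strand, coding exon 22) had 21.2% and 14.1% in LF and 5.65% and 5.96% in MF, a difference of 12 points (6.75 to 17.4, Fisher adjusted p = 0.00142, beta-binomial adjusted p = 0.0312, limma adjusted p = 0.7). Without LF replicate 1 it was 8.26 points (Fisher adjusted p = 0.14). Rnf157 was the one lower site, with 31.6% and 30.1% in LF and 41.6% and 40.3% in MF, by -10.1 points (-15.1 to -5, Fisher adjusted p = 0.0074, beta-binomial adjusted p = 0.174).

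The other sites called were small differences. Ephb3, a receptor of ephrins, had 12.1% and 12.6% in LF and 11.1% and 6.90% in MF, 6 bases before its start codon. Vac14, a scaffold of the PIKfyve lipid kinase, had 3.57% and 5.44% in LF and 1.69% and 1.14% in MF. Ptprf, Cotl1, Rpl23 and Gm9794 were higher by 2.66, 1.73, 1.04 and 0.959 points. Rpl23, a ribosomal protein, was called at 16577 to 22106 reads, where 7.85% and 8.83% in LF stood against 7.37% and 7.29% in MF (beta-binomial adjusted p = 0.906). Without LF replicate 2 there were 3 calls and without MF replicate 1 there were 5. Of Wdr48, Col4a6, Rnf157, Ephb3 and Vac14, only Wdr48 kept its call whichever library was left out.

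In polysome mRNA, sites entered through LF and MF. Of 56 isolated sites tested for pLF against pMF, 4 were called and all were lower in pLF (beside 2.65% of 264 tested that were lower, 8.33% that were higher and 11% in all). Fam131a had 14.5% and 15.9% in pLF and 22.0% and 26.5% in pMF, lower by -9.57 points (-16 to -3.26, Fisher adjusted p = 0.0308). Rptor encodes raptor, the substrate adaptor of mTORC1, and had 16.6% and 25.4% in pLF and 27.6% and 31.4% in pMF at 538 to 668 reads, by -8.03 points (-11.6 to -4.50, Fisher adjusted p = 0.00022). Ephb3 had 10.6% and 9.15% in pLF and 14.3% and 23.3% in pMF, and Cenpv, a centromere protein, 20.4% and 23.3% against 26.7% and 26.6%. The beta-binomial test and limma called 0 of the 56 and 0 of all 264. At an unadjusted p under 0.05 they had 1 and 0 of the 56, and the share over all 264 was not counted. Without pLF replicate 1 none of these 4 was called, though each stayed lower in pLF (by -8.85, -4.01, -8.91 and -3.40 points in the order above), and 2 other sites were called, both higher in pLF.

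Of 59 isolated sites tested for pHF against pMF, 11 were called, 8 higher and 3 lower in pHF (beside 10.3% and 7.11% of 253 tested, 17.4% in all). Farp2 had 8.70% and 8.77% in pHF and 27.8% and 24.1% in pMF, lower by -17.4 points (-30.0 to -5.11, Fisher adjusted p = 0.0401) at 23 to 57 reads. Klhl26, an adaptor of cullin ligases, had 48.7% and 53.5% in pHF and 23.5% and 47.4% in pMF, higher by 17.2 points (7.60 to 26.2, Fisher adjusted p = 0.00941), although the pMF replicates lay far apart. Fam219a had 39.2% and 20.5% in pHF against 18.3% and 18.3% in pMF, and Nelfb, a subunit of the negative elongation factor, 34.9% and 27.9% against 11.4% and 23.5%. Fam131a had 14.4% and 11.6% in pHF, lower by -11.9 points (-18.3 to -5.50). Fbln2 had 42.3% and 36.4% against 33.5% and 33.8%, higher by 4.89 points (3.37 to 6.42, Fisher adjusted p = 9.83e-08, beta-binomial adjusted p = 0.99). Without pMF replicate 1 the difference at Klhl26 was 4.74 points and at Nelfb 7.53 points, and without pHF replicate 1 that at Fam219a was 2.18 points. Farp2, Klhl26, Fam219a, Nelfb and Fam131a each lost the call when some library was left out. The beta-binomial test and limma called 0 of the 59 and 0 of all 253. At an unadjusted p under 0.05 they had 4 and 3 of the 59, and the share over all 253 was not counted. Fisher's exact test gave 3 calls without pHF replicate 2 and 5 without pMF replicate 1. The comparisons of pLF and pHF share the pMF libraries.

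**Figure D5:**
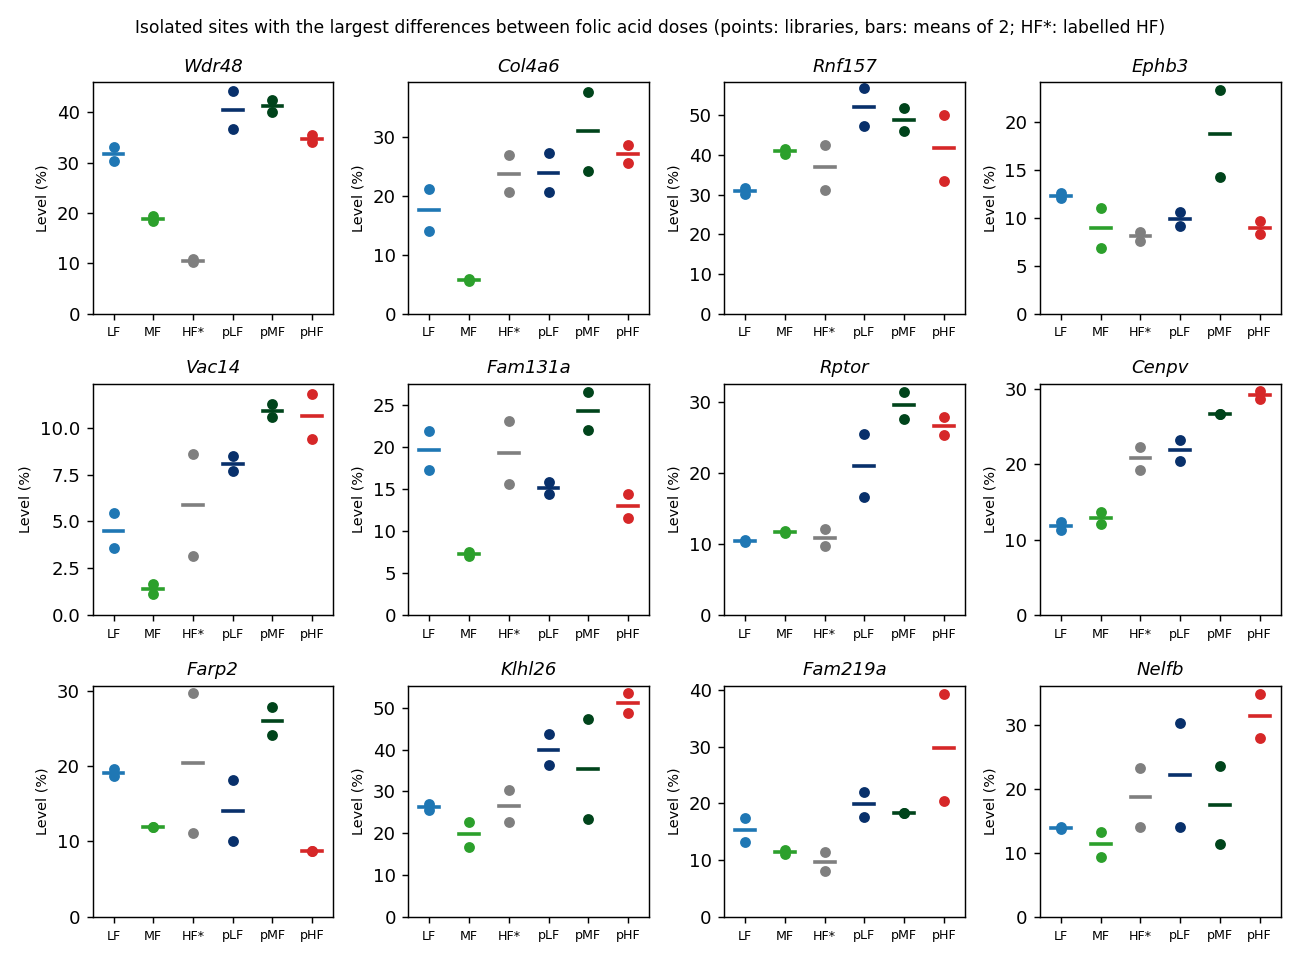
Each panel shows 1 isolated site, with the methylation level in percent of every library as points and the mean of 2 replicates as a bar, by condition (HF* marks the libraries labelled HF). Wdr48 and Col4a6 are higher in LF than in MF, and Fam131a and Ephb3 lie lower in pLF and pHF than in pMF.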

How the data were processed

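RNA bisulfite sequencing lists of 12 libraries were read with Python 3.11.15, pandas 2.3.3 and numpy 2.4.6. The authors trimmed reads with fastp, aligned them to mm10 with meRanGh and called cytosines with meRanCall; their R was 4.1.1. The deposited counts are whole, unnormalized numbers of all, methylated and variant reads per cytosine, and the deposited methylation level is a fraction that the authors computed from those reads. A cytosine is listed from 10 reads on if at least 1 was methylated, so unlisted cytosines are unknown. The study's later filters on reads, signal and structure were not repeated, so levels can include unconverted reads. Entries with a variant base were not used.

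Members were found by the rule given in the report, and features came from GENCODE vM21. Members, lists and tests were chosen with earlier results of these data known. Tests were Fisher's exact test on pooled reads (scipy 1.17.1), a beta-binomial likelihood ratio test, limma 3.58.1 in R 4.3.3 on log odds (pseudocount 0.5) and a Cochran-Mantel-Haenszel test with the replicate number as a block, all adjusted by Benjamini-Hochberg at 0.05; statsmodels 0.14.6 gave Newcombe intervals and matplotlib 3.10.9 the figures. The tests were tried on simulated data. At a coverage of 20, 1 read moves a level by 5 points, and with 2 replicates against 2 an exact permutation test allows no p under 0.333.

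Named sites were, in each comparison, the 5 sites past the threshold that differed most without overlap, the 8 highest called in all 5 conditions, the genes with most members (5 tied, with 2 each), the 3 sites nearest the level minimum on each side, the 3 of each motif called in most conditions, members of the gene lists, and the highest site of each single condition; others were chosen after their values were seen. Alternatives were other minimums of coverage, level and methylated reads, other windows, the other tests, leaving out chromosome MT, pHF or a replicate, and, added after seeing the data, single replicates without pHF, the spread of isolated sites alone and a crossed pairing.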

Additional observations from a re-analysis of the deposited data

Results flagged for a closer look

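At 5 of the 18 sites named for a difference, both LF libraries lay on one side of both MF libraries while both pLF libraries lay on the other side of both pMF libraries; the difference between the fractions was not tested, and these sites had been named for a difference in at least 1 comparison, Ephb3 in both of those set side by side here. Of the 174 members covered in these 8 libraries, 11 (6.32%) had such opposite orders and 10 (5.75%) the same order in both fractions. Over all cytosines tested, the libraries did not overlap at 36.2% in LF against MF and at 31.1% in pLF against pMF. As differences of mean levels, Fam131a was higher in LF by 12.3 points and different in pLF by -9.1 points, Farp2 by 7.26 and -11.9 points, Ephb3 by 3.34 and -8.92 points, Rela by 3.55 and -3.56 points, and Vac14 by 3.09 and -2.83 points.

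The libraries labelled HF entered neither the rule nor the tests. Of the 259 members, 95 were called in both of them, beside 72 in both libraries of LF, 78 in MF and 141 to 154 in the polysome conditions. Those other conditions chose the members. In all, 2334 cytosines of nuclear genes were called in both libraries labelled HF, against 358 to 619 in the other conditions.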

How the results depend on the processing

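The number of members stayed within 1.5 times of 259 under every alternative with both replicates, except a level minimum of 20%, which gave 93. Replicate 2 alone gave 3635 and replicate 1 alone 1773, with guanine at position 3 at 32.4% and 37%. Leaving out pHF as well, an alternative added after seeing the data, these were 1432 and 1548, with 36.03% and 37.02%. LF against MF gave 9 calls, 2 by the beta-binomial test with either spread, 0 by limma, and 3 to 10 with a library left out. pLF against pMF gave 4 calls, 0 by the beta-binomial test with either spread and by limma, and 2 to 7 with a library left out, where the 2 without pLF replicate 1 were other sites, higher in pLF, and the 4 stayed lower without a call. pHF against pMF gave 11 calls, 0 by those tests, and 3 to 11 with a library left out. pLF against LF gave 25 calls, 4 by limma and 22 to 26 with a library left out, and pMF against MF 24, 9 and 21 to 24. For 24 pairs of a named site and a comparison (18 different sites), 183 of 264 alternative values kept their direction and side of the threshold and 81 lost the call. The cause of these changes was not tested.

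With the replicate number as a block, the calls were 12, 4, 10, 25 and 24, and Farp2 and Fam219a in pHF against pMF lost their calls (adjusted p = 0.0555 and 0.0508). Calls of this block test over all cytosines tested were not counted. The replicate numbers were not taken to pair samples, since only 2 pairs exist. Deviations of same-numbered libraries correlated between -0.2831 and 0.2294 at isolated sites, and between -0.1496 and 0.2725 over all cytosines tested. For pLF against LF the crossed pairing gave 26 calls.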
